A study of Schizosaccharomyces pombe with 2 samples.

Results

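The genes described here encode parts of the ubiquitin-proteasome system of fission yeast, Schizosaccharomyces pombe. They were chosen by name: each has a probe set of its own that names a single S. pombe gene with a symbol of rpn, rpt, pre, pup, ubc or pof followed by digits. This gave 49 genes of the 2896 with a probe set of their own, of which 24 were proteasome subunits, 11 were ubc genes and 14 were pof genes. The choice was made with earlier results of these data known, and pof14 was named in it among the pof genes. The study hybridised 2 Affymetrix Yeast Genome 2.0 arrays, 1 with RNA of log-phase cells after 2 h in 0.5 mM DETA NONOate, a slow nitric oxide donor, and 1 with RNA of untreated cells. Cells grew at 30 °C in YES, a rich medium, and the labels name no strain or genotype and no time for the untreated culture. The comparison asks how transcript levels respond to the donor. A control with spent donor was not among the arrays, so the action of nitric oxide and that of the remaining molecule cannot be told apart.

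Ubiquitin is a small protein that cells attach to other proteins to mark them, often for destruction. An activating enzyme passes it to a conjugating enzyme (ubc genes), and a ligase then guides it to the target. In one large class of ligases, the SCF complexes, an F-box protein (pof genes, for "pombe F-box") picks the target and binds the rest of the complex through the linker protein Skp1. Tagged proteins are taken up by the 26S proteasome. Its 19S particle, made of rpt and rpn subunits, recognises and unfolds them, and its barrel-shaped 20S core, made of pre and pup subunits among others, cuts them into peptides. In fission yeast this system sets the timing of the cell cycle through the destruction of cyclins and inhibitors, and it also acts in stress responses.

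Each value is the deposited signal of 1 probe set on a linear scale, and a log2 ratio is log2 of the treated signal over the untreated one, so that a value above 0 means a higher signal after treatment. Because each group has a single array, no difference could be tested and the number of arrays sets the limit of precision. A gene was counted as apart at 2-fold or more. The spread of 64 probe sets for bacterial and phage control RNAs was an SD of 0.24 in log2 ratio, and none of them was 2-fold apart. It holds the noise of hybridization and at most part of that of labelling, but none from growing separate cultures. The background level of an array was the 95th percentile of the probe sets for Saccharomyces cerevisiae genes, a signal of 8.76 on the treated and 7.99 on the untreated array. All 49 genes passed it on both arrays, as did 2876 of the 2889 S. pombe genes that passed it on at least 1. The lowest signals among the 49 were those of ubc12, 40.4 on the treated and 64.3 on the untreated array.

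Proteasome subunit genes with these symbols stayed close to their untreated signal, while the pof genes spread widely and one of them, pof14, was far higher on the treated array. The 24 proteasome genes had a median log2 ratio of 0.11, between −0.23 and 0.31, so the one of these 24 farthest from equality was 1.24-fold apart. The ubc genes had a median of 0.16, from −0.67 to 0.32. The pof genes had a median of 0.22, from −0.79 to 2.11. At 2-fold or more, 1 of the 49 genes was higher, against 2.25% of the 2889 measured genes, and 0 were lower, against 2.04%. A share this close to that of all genes is not a result about the 49 genes as a set.

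**Figure D1:**
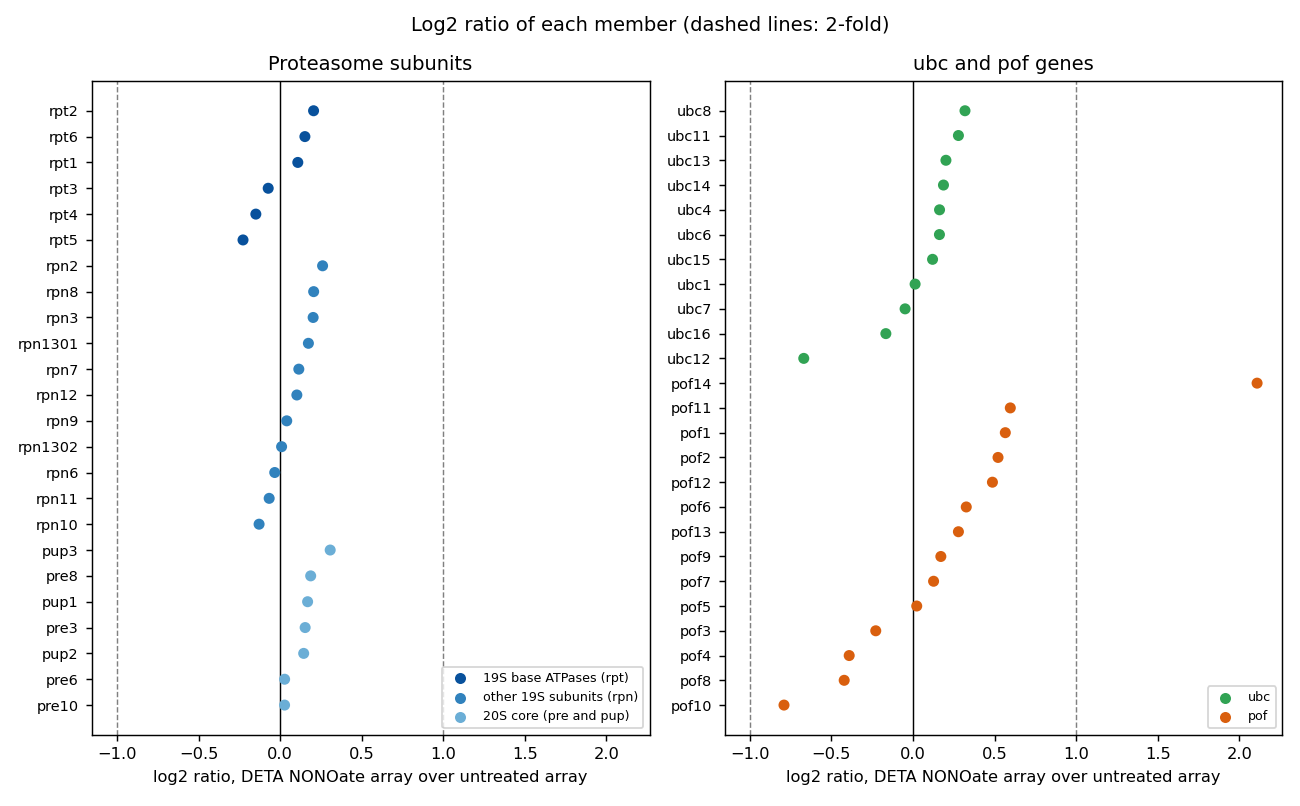
Log2 ratio (horizontal axis, treated array over untreated array) of each of the 24 proteasome genes (left) and of the 11 ubc and 14 pof genes (right), 1 point per gene, coloured by group and ordered within it, with dashed lines at 2-fold. The proteasome points lie between −0.23 and 0.31, and pof14 at 2.11 is the single point beyond a dashed line.

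The rpt genes encode the ring of ATPases at the base of the 19S particle, which unfolds substrates and feeds them into the core. All 6 were measured, and they went both ways. The gene rpt2 had a signal of 3066 on the treated and 2659 on the untreated array, a log2 ratio of 0.21. Those of rpt6 were 3172 on the treated and 2855 on the untreated array (0.15), and those of rpt1 were 3719.9 on the treated and 3450.3 on the untreated array (0.11). These 3 genes were slightly higher on the treated array. The other 3 were slightly lower: rpt3, with 1875 on the treated and 1972 on the untreated array, had a log2 ratio of −0.07. The log2 ratio of rpt4 was −0.15, from 2897 on the treated and 3211 on the untreated array, and that of rpt5 was −0.23, from 625 on the treated and 731 on the untreated array. All 6 lay within the SD of the control RNAs, and their median was 0.02.

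The 11 rpn genes encode other 19S subunits: scaffolds, ubiquitin receptors, and the lid, which carries the enzyme that removes ubiquitin chains. The scaffold gene rpn2 had the largest log2 ratio among them, 0.26, with signals of 2612 on the treated and 2180.2 on the untreated array. Among lid genes, rpn8 had 2682 on the treated and 2325 on the untreated array (0.21), and rpn3 had 2272 on the treated and 1975 on the untreated array (0.20). The lid genes rpn7, rpn12, rpn9 and rpn6 had log2 ratios of 0.11, 0.10, 0.04 and −0.03. The lid gene rpn11, for the deubiquitinating subunit, had 1698 on the treated and 1779 on the untreated array (−0.07). The ratios of rpn6 and rpn11 were above 0 after quantile normalization, at most 0.01. Receptor genes differed little: rpn10 had the lowest log2 ratio of the 11, −0.13, from 1943 on the treated and 2125 on the untreated array. The paired receptor genes rpn1301 and rpn1302, counterparts of the single Rpn13 gene of budding yeast, had 0.17 and 0.01. In all, 10 of 11 rpn genes lay within the SD of the control RNAs. A probe set shared by rpn501 and rpn502, copies of a lid gene, names more than 1 gene and is no member; its signal was 5934 on the treated and 5679.8 on the untreated array, a log2 ratio of 0.06.

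All 7 core genes had a higher signal on the treated array, by small amounts, and 6 of the 7 lay within the SD of the control RNAs. Of all measured genes, 49.2% had a ratio above 0. The core is a stack of rings of alpha subunits, which form the gate, and beta subunits, some of which carry the cutting sites. The roles of single subunits given here are those of their budding yeast namesakes. Among beta subunits, pup3 had 2526 on the treated and 2042 on the untreated array, and its log2 ratio of 0.31 was the highest of all 24 proteasome genes. The gene pup1, for the subunit with trypsin-like activity, had 3400.4 on the treated and 3025 on the untreated array (0.17). The gene pre3, for the subunit with caspase-like activity, had 3877 on the treated and 3486 on the untreated array (0.15). The 4 alpha subunit genes had log2 ratios of 0.19 for pre8, 0.14 for pup2, and 0.03 for both pre6 and pre10. Their medians were 0.17 for the 3 beta and 0.09 for the 4 alpha subunit genes, and no error of the difference can be given. All 7 ratios were also above 0 after quantile normalization and after removal of a trend of ratio on signal.

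Across the 24 proteasome genes with these symbols, 18 had a ratio above 0, against 49.2% of all measured genes. Of 4 subunit genes under other names, described below, 3 were above 0 and 1, dss1, had −0.57, outside the range of the 24. This count was 20 of 24 after quantile normalization and 18 with the trend on signal removed. The log2 ratios of the 24 genes had an SD of 0.14, against 0.57 for the 1262 measured genes whose mean signal lay in the same range, 678 to 3774. Of those 1262 genes, 66 (5.23%) were 2-fold or more apart, and their median log2 ratio was −0.03. At 1.5-fold, 0 of 24 proteasome genes were apart in either direction, against 12.3% of all measured genes, and 22 of the 24 lay within the SD of the control RNAs, against 54.8% of all measured genes.

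**Figure D2:**
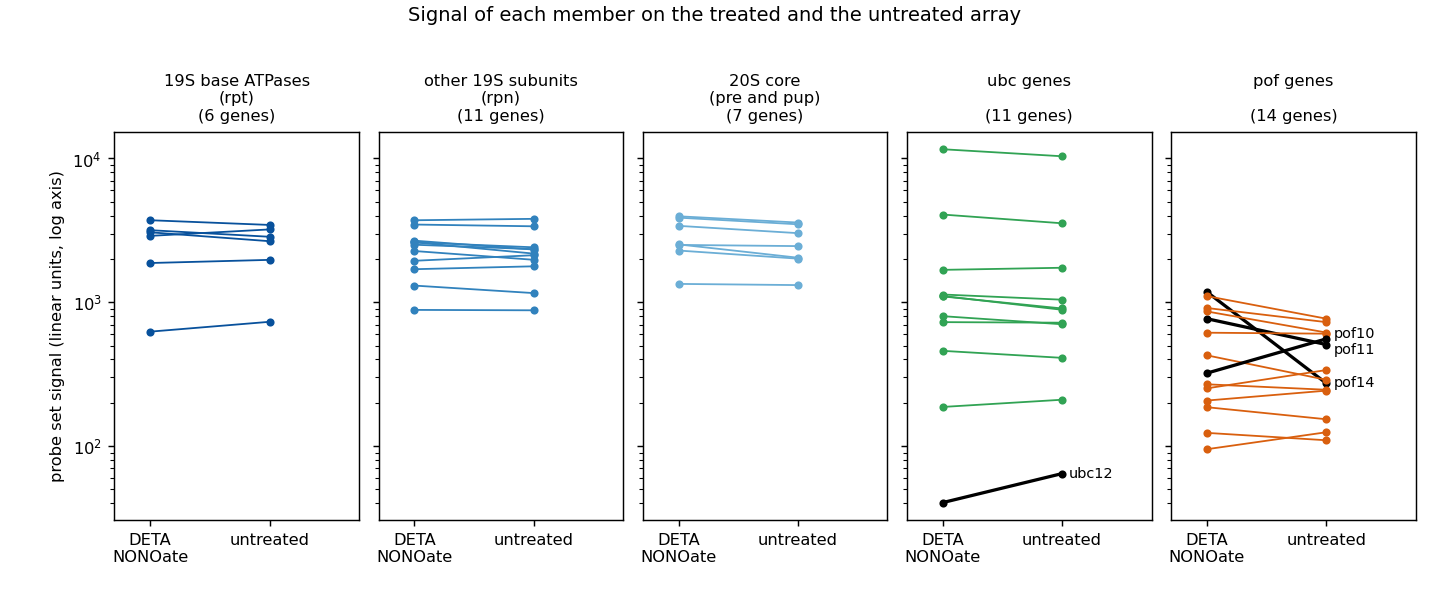
Signal of every member on the treated array (left point) and the untreated array (right point) on a log axis in linear signal units, 1 line per gene, in 5 panels by group; black lines mark the 4 genes 1.5-fold or more apart (pof14, pof11, pof10 and ubc12). Lines in the 3 proteasome panels are nearly level, and the steepest line is that of pof14, with 1180.5 on the treated and 274 on the untreated array.

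The 11 ubc genes, for conjugating enzymes, resembled the proteasome genes except for ubc12. Enzymes with broad roles in protein breakdown include Ubc4 and Ubc1. The gene ubc4 had 11597 on the treated and 10362 on the untreated array, a log2 ratio of 0.16, which was −0.01 after quantile normalization and −0.03 with the trend of ratio on signal removed. The gene ubc1 had 728 on the treated and 721 on the untreated array (0.01). Enzymes known for destroying misfolded proteins at the endoplasmic reticulum, Ubc6 and Ubc7, had genes with log2 ratios of 0.16 and −0.05, and that of ubc7 was 0.03 after quantile normalization.

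The gene ubc11, for the enzyme that works with the anaphase-promoting complex in the destruction of cyclin, had 1098 on the treated and 906 on the untreated array (0.28). The gene ubc13, whose product builds chains used in DNA damage tolerance, had 4075 on the treated and 3543 on the untreated array (0.20). The highest of the 11 was ubc8, with 1106 on the treated and 887 on the untreated array, a log2 ratio of 0.32. In budding yeast, Ubc8 takes part in the removal of gluconeogenic enzymes. The genes ubc14, ubc15 and ubc16 had log2 ratios of 0.19, 0.12 and −0.17. Together, 8 of 11 ubc genes had ratios above 0, against 49.2% of all measured genes. The ubc count was 7 with the trend on signal removed.

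The gene ubc12 encodes the conjugating enzyme of NEDD8, a ubiquitin-like protein that is attached to cullins and activates SCF ligases. It was the single ubc gene 1.5-fold or more apart, at 1.59-fold lower, with signals of 40.4 on the treated and 64.3 on the untreated array. At 1.5-fold, 6.61% of all measured genes were lower. The probe set for ubc12 was the only one of the 49 with a signal under 100 on both arrays, and its log2 ratio lay between −0.82 and −0.51 over the alternative settings. Other genes of the NEDD8 pathway differed in direction. The gene for NEDD8 itself, ned8, had 467 on the treated and 859.7 on the untreated array and was 1.84-fold lower, and this signal lay well above background. By contrast uba3, for a subunit of the NEDD8-activating enzyme, had 779.7 on the treated and 656 on the untreated array, a log2 ratio of 0.25. The NEDD8 protease genes nep1 and nep2 had 0.26 and 0.12.

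The pof genes differed most from each other. The gene pof14 (SPAC13D6.01) had 1180.5 on the treated and 274 on the untreated array and was 4.31-fold higher, which placed it 11th from the top among 2889 measured genes. It was the single member of the 49 past 2-fold and the single one outside the central 95% of all measured genes, which ran from −0.90 to 0.95. Its log2 ratio stayed between 2.05 and 2.15 over the alternative settings. Pof14 is known in fission yeast as an F-box protein whose gene responds to hydrogen peroxide and which binds squalene synthase, the product of erg9, without the rest of the SCF complex. The gene erg9, looked up for that reason and outside the rule for named genes, had 3239.7 on the treated and 2949 on the untreated array, a log2 ratio of 0.14. The coding genes next to pof14 in the genome, mal3 and byr3, had log2 ratios of 0.00 and −0.07, so the difference was not shared by the neighbours.

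The next 4 pof genes were between 1.40-fold and 1.51-fold higher. The gene pof11 had 769 on the treated and 508 on the untreated array and was 1.51-fold higher. The gene pof1, whose product targets the transcription factor Zip1 and is the counterpart of budding yeast Met30, had 428 on the treated and 289 on the untreated array, 1.48-fold higher. The gene pof2 had 1104 on the treated and 769 on the untreated array (1.43-fold), and pof12 had 863 on the treated and 616 on the untreated array (1.40-fold). These 4 log2 ratios, 0.49 to 0.60, exceeded those of all 24 proteasome and all 11 ubc genes. The highest of the latter, ubc8 at 0.32, was itself only 417th from the top among 2889 measured genes, so many genes outside these groups exceeded them too.

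The gene pof6, for an essential protein of cell separation, had 912 on the treated and 728 on the untreated array, a log2 ratio of 0.33. The gene for its partner Sip1, sip1, had −0.09. The genes pof13, pof9, pof7 and pof5 had log2 ratios of 0.28, 0.17, 0.13 and 0.02, with signals of 124 to 614 on the treated and 109.8 to 605 on the untreated array. At the lower end were 4 genes. The gene pof3, for a protein of genome maintenance, had 207 on the treated and 243 on the untreated array (−0.23). The gene pof4, a counterpart of elongin A, had 95.1 on the treated and 125 on the untreated array (−0.39). The gene pof8, also called lar7 and known for a protein of the telomerase complex, had 252 on the treated and 338 on the untreated array (−0.42). The lowest was pof10 (SPBC1703.06), with 322 on the treated and 556 on the untreated array, 1.73-fold lower.

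At 1.5-fold or more, 2 of 14 pof genes were higher and 1 was lower, against 5.68% and 6.61% of all measured genes. The SD of the 14 log2 ratios was 0.68, or 0.44 without pof14, and their median absolute log2 ratio was 0.41, or 0.39 without pof14. The 1464 measured genes whose mean signal lay in the range of the pof genes, 109.9 to 936, had an SD of 0.40, a median of −0.02 and a median absolute log2 ratio of 0.21. Of the 14 pof genes, 4 (28.6%) lay within the SD of the control RNAs, against 55.9% of those 1464 genes and 54.8% of all measured genes.

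**Figure D3:**
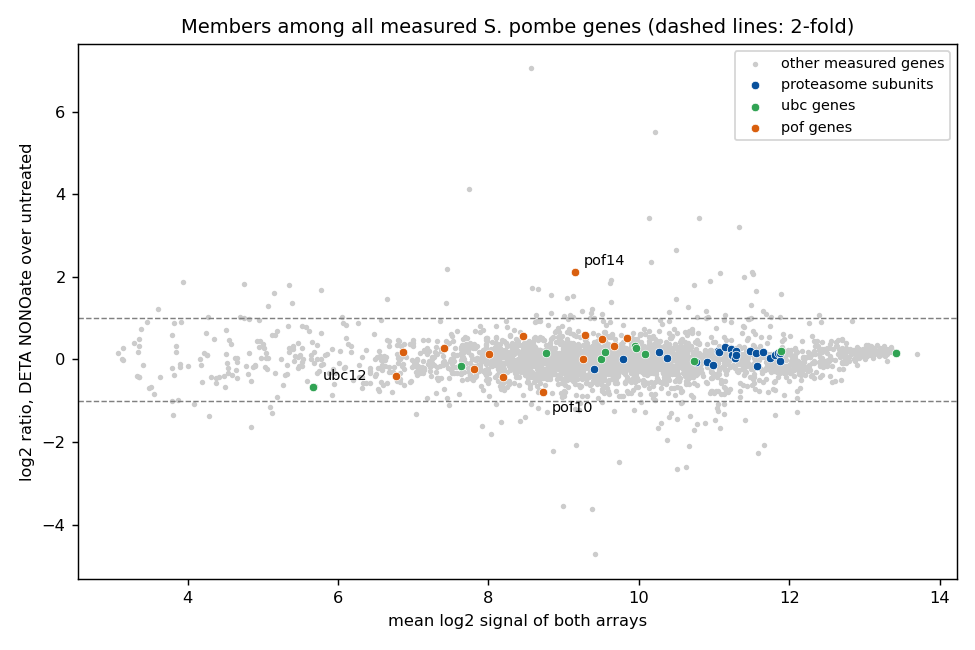
Log2 ratio (vertical axis, treated array over untreated array) against the mean log2 signal of both arrays (horizontal axis) for all 2889 measured genes in grey, with the 24 proteasome, 11 ubc and 14 pof genes in colour and dashed lines at 2-fold. The proteasome genes lie in a narrow band near 0, while the pof genes, whose probe sets were dimmer, scatter around it from −0.79 to 2.11.

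Set side by side, the proteasome genes and the ubc and pof genes differed more in spread than in their medians. The median log2 ratio was 0.11 for the 24 proteasome genes and 0.16 for the 25 ubc and pof genes, a difference of −0.05, with no estimate of its error. The SD was 0.14 for the proteasome genes and 0.54 for the ubc and pof genes, 3.94 times as large, or 2.66 times without pof14. For all 2889 measured genes the SD was 0.51, close to that of the ubc and pof genes. Without pof14, the ubc and pof genes had an SD of 0.37, below that of all measured genes. The ubc and pof genes also differed from each other, with an SD of 0.28 for the 11 ubc genes and 0.68 for the 14 pof genes. The 2760 measured genes in the signal range of the ubc genes had an SD of 0.50. Together, 12 of 25 (48%) lay within the SD of the control RNAs, against 54.8% of all measured genes. By group, the counts were 8 of 11 for ubc, 4 of 14 for pof and 22 of 24 for proteasome genes. Signal moved with this comparison. The median signal of the proteasome genes was 2568 on the treated and 2333 on the untreated array. That of the ubc genes was 1098 on the treated and 887 on the untreated array, and that of the pof genes was 375 and 313. The part of signal in the difference in spread was not tested.

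Other genes of the pathway, from 10 lists, stayed mostly within 2-fold. Of 108 measured genes, 1 was at least 2-fold higher and 1 at least 2-fold lower, together 1.85%, against 4.29% of all measured genes, and their median log2 ratio was 0.04. With the trend of ratio on signal removed, apc13 also passed 2-fold in the lower direction, at a log2 ratio of −1.05. Among 4 proteasome subunit genes under other names, mts4 (the scaffold Rpn1), the core genes pts1 and pam1, and dss1, a small lid subunit, 0 were 2-fold apart. The outermost were dss1, with 522 on the treated and 773 on the untreated array (−0.57), and mts4 (0.12). Among 3 genes for proteasome assembly and anchoring, ecm29 had 0.35 and the maturation factor gene ump1 had 0.24. Ubiquitin and its activation, 9 genes with NEDD8, had a median of 0.19. There the outermost were ned8, described above, and ptr3, for the ubiquitin-activating enzyme, with 3365 on the treated and 2801 on the untreated array (0.26). Of 3 conjugating enzymes under other names, rhp6, of histone ubiquitination and DNA repair, had 0.15 and mms2, the partner of Ubc13, had −0.14.

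The list of SCF and other cullin ligases held the gene with the highest ratio. The gene cdt2, for a substrate adaptor of the cullin Cul4 ligase that acts in S phase, had 733 on the treated and 224 on the untreated array and was 3.27-fold higher. The other 13 measured genes lay within 2-fold, and the list's median was −0.01. Next was pop2, for an F-box protein that targets cell cycle regulators, with 355 on the treated and 468 on the untreated array (−0.40). The shared SCF parts skp1, cul1 and rbx1, named after their values were seen, had log2 ratios of 0.01, 0.09 and −0.05. The COP9 signalosome, which removes NEDD8 from cullins, had 5 of 6 genes below 0, against 1467 of all 2889 measured genes. The median of the 6 was −0.09, less from 0 than the SD of the control RNAs. At 2-fold, 0 of the 6 were apart, against 4.29% of all measured genes, which says little for so short a list. The outermost were csn1 with −0.43 and csn5, the gene for the catalytic subunit, with −0.30.

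Among 16 genes of the anaphase-promoting complex and its activators, 0 were 2-fold apart, against 4.29% of all measured genes. The outermost, apc13, had 9.84 on the treated and 19.6 on the untreated array and was 1.99-fold lower, near background on both. The activator gene slp1 had 555 on the treated and 804 on the untreated array (−0.54). Of 23 genes for HECT and RING ligases, 0 were 2-fold apart. In lists this short, beside that share of all genes, a count of 0 says little. The gene brl1, for a ligase of histone ubiquitination, had −0.66, and hrd1, for a ligase of the endoplasmic reticulum, had 0.54. Cdc48 and shuttle factors had a median of 0.20 over 13 genes, with 0.50 for ufd1 and 0.48 for npl4, the genes for the cofactors with which the Cdc48 ATPase extracts tagged proteins. Of 18 genes for deubiquitinating enzymes, ubp11 had 640.4 on the treated and 1504 on the untreated array and was 2.35-fold lower. The other 17 lay within 2-fold, the next being ubp9 with 0.54. Of the 18, 12 had ratios below 0, against 1467 of all 2889 measured genes, and their median was −0.08.

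**Figure D4:**
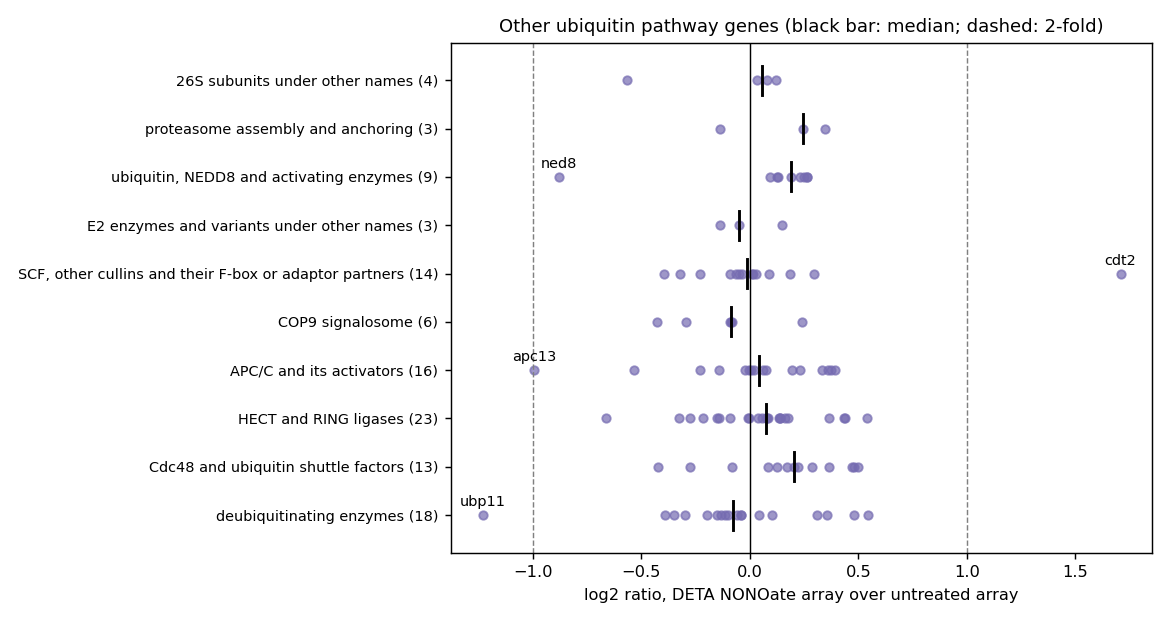
Log2 ratio (horizontal axis, treated array over untreated array) of the measured genes of 10 further lists of the ubiquitin pathway, 1 row per list with its number of genes, 1 point per gene, a black bar at the median and dashed lines at 2-fold. The points cdt2 at 1.71 and ubp11 at −1.23 lie beyond the dashed lines, and the medians lie between −0.09 and 0.24.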

How the data were processed

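Per the labels' protocols, 250 ng of column-purified total RNA went into each biotinylated cRNA. The authors deposited 1 linear intensity per probe set and array, and the submitters' processing notes name Affymetrix Expression Console. Neither its version nor the way probes were summarised is stated there. The 2% trimmed mean was 500.32 on the treated and 500.29 on the untreated array, so the arrays had been scaled, which hides any change common to all transcripts.

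Probe sets were named through the platform annotation, matched by gene ID to the RefSeq table of assembly ASM294v3. The 10928 probe sets divided into 2914 for a single S. pombe gene and 2601 for an S. cerevisiae gene, while 20 named several genes, 213 were controls, 3 had no settled species and 5177 had no name. The probe set with the highest mean signal stood for a gene, and no member had more than 1. Log2 was taken after signals under background were set to that level (Python 3.11.15, numpy 2.4.6, pandas 2.3.3). The steps were run on simulated data, made from the untreated array with planted changes. Its added noise was smaller than the spread of the control RNAs, so it checks the calculation and not the precision of these arrays. The named genes were all members and, in each further list, those 2-fold apart and the 2 with the largest absolute log2 ratio. The genes uba3, nep1, nep2, sip1, pts1, pam1, skp1, cul1, rbx1, erg9, mal3 and byr3 fall outside this rule and were added after values were seen. Symbols of the lists were also matched to RefSeq synonyms, and 6 matches to other genes were left out. Members and lists were chosen with earlier results of these data known. Alternatives covered the background level, the scaling, the fold threshold and the choice of genes.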

Additional observations from a re-analysis of the deposited data

How the results depend on the processing

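The alternatives were no background level with 16 added to each signal, the 99th percentile as background, quantile normalization, centring on the median, subtracting a loess fit of ratio on signal (span 0.3), the mean over probe sets, adding subunits with other symbols and leaving out genes under 100 on both arrays. The median log2 ratio ranged from 0.11 to 0.14 for proteasome genes, from 0.16 to 0.17 for ubc genes and from 0.20 to 0.24 for pof genes, and the difference between the proteasome median and that of ubc and pof genes from −0.06 to −0.03. None of the 49 log2 ratios moved by more than the SD of single control probe sets, a coarse measure under which ubc4, at 0.16, could reach −0.03. The signs of rpn6, rpn11, ubc4 and ubc7 turned under at least 1 scaling. At 2-fold, the count of apart genes in the further lists was 3 in place of 2 with the loess fit subtracted, the added gene being apc13 in the lower direction. At 1.5-fold, 1 of 11 ubc genes, 3 of 14 pof genes and 5 of 108 genes of the further lists were apart, against 12.3% of all measured genes. At 3-fold, pof14 and 1 gene of the further lists were. The share of all measured genes past 3-fold was not counted, so these counts have nothing to be set against. No paired analysis was possible because each group has 1 array.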
